A study of Mus musculus with 6 samples.

Results

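A set of 10 genes of the Wnt pathway was examined in sorted mouse skin keratinocytes: the receptors Fzd2, Fzd6, Fzd7 and Lgr5, the inhibitors Dkk3, Sfrp1 and Apcdd1, and the TCF family factors Tcf7l1, Tcf7l2 and Lef1. All probe sets that the platform annotation pairs with these 10 symbols were taken, which gave 13 of the 12422 probe sets that are not control rows, for 10 of 8251 named genes. The genes were picked with the EGFP-high and EGFP-negative values of these arrays already known, so their own differences are given as a description and support nothing. Gene expression was measured on 6 arrays, 1 per sample, with 3 samples of EGFP-high and 3 of EGFP-negative cells. All cells came from mice with a transgene, K15-EGFP, in which a keratin 15 promoter drives enhanced green fluorescent protein. Cells of both gates were positive for α6 integrin, a surface protein of basal keratinocytes. The comparison asks what distinguishes cells in which this promoter is active, among them those of the hair follicle bulge where follicle stem cells lie, from other α6 integrin positive keratinocytes. The labels give no strain, age or sex of the mice and do not say whether replicates came from separate animals, so the spread between samples may be partly technical.

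Wnt proteins bind Frizzled receptors and their LRP coreceptors, which stops a destruction complex from degrading β-catenin. β-catenin then enters the nucleus and binds TCF and LEF factors on their target genes, where these factors otherwise tend to repress with the help of corepressors. Secreted inhibitors such as the SFRP proteins bind Wnt ligands outside the cell, and LGR receptors bind R-spondins, which keep Frizzled receptors at the surface. In hair follicles the pathway is known for starting new growth, and Tcf7l1, once called Tcf3, is known as a repressor in bulge cells at rest, while Lef1 is known from hair matrix and precortex cells.

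The DNA before the start sites of the TCF genes and of Fzd7 is shown because TCF and LEF factors bind DNA at a CAAAG core, and these genes can be read for that core beside their own expression. RefSeq promoter sequence of GRCm38.p6 was matched for 4 of the 10 genes: Fzd7, Lef1, Tcf7l1 and Tcf7l2. The search for the 10 genes skipped windows on a single chromosome, while the shares over all windows below kept them. A gene without a match may thus still have a listed promoter. The windows hold the 250 bases before the most upstream of a gene's listed starts, 5′ to 3′ on the strand of the gene. Lef1 had 4 listed starts and Tcf7l2 had 2, and the windows of their other starts were not read. Capitals mark CAAAG or CTTTG, which is CAAAG on the other strand.
Tcf7l1, chr6:72789046-72789295, minus strand: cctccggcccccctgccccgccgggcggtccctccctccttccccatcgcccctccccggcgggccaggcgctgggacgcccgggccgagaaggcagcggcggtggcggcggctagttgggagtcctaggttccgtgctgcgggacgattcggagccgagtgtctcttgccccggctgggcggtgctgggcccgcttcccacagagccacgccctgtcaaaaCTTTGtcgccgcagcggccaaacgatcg
Lef1, chr3:131110047-131110296, plus strand: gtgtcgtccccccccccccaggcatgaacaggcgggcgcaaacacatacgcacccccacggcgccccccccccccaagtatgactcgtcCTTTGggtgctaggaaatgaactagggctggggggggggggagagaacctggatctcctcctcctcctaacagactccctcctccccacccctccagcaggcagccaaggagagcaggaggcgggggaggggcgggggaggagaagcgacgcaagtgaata
Tcf7l2, chr19:55741560-55741809, plus strand: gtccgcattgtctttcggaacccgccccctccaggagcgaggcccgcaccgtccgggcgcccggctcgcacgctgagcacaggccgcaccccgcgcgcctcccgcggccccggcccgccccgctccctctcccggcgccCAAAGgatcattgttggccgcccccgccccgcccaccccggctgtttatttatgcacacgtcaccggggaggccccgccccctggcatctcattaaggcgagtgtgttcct
Fzd7, chr1:59481897-59482146, plus strand: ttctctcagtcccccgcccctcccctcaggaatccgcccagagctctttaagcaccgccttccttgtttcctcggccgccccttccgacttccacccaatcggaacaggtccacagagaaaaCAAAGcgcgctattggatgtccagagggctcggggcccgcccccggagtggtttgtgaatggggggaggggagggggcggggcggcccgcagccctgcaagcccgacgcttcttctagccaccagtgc
Each of the 4 windows holds 1 copy of the core, 28 bases before the start in Tcf7l1, 161 in Lef1, 111 in Tcf7l2 and 128 in Fzd7. Over all 32851 windows of the table, 48.6% hold CAAAG on either strand. The longer TCF word, in which the core follows 2 letters that are each A or T, occurs in the window of Fzd7 and in none of the other 3, and in 14.8% of all windows. A match of letters is a description of the window and does not show a binding site.

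The arrays were first read for depth of signal and for the labels. Intensities are the authors' values on a linear scale, and array medians lay between 69.55 and 76.05. The level of no signal was taken from 15 control rows for Bacillus genes, whose 95th percentile was 28.25 to 43.95 on EGFP-high arrays and 25.9 to 32.64 on EGFP-negative arrays. A probe set at or below it is called dim on that array. Of bulge markers, 7 of the 8 tested rose in EGFP-high cells and 0 fell, with a summed intensity of 15776.1 to 19166 against 2439.7 to 2912.6 in EGFP-negative cells (limma, Benjamini-Hochberg). Some of those markers may have been first reported from these arrays, so they are not independent evidence. The probe sets of Krt15, whose promoter drives EGFP, and of the basal keratin Krt14 were dim on all 6 arrays and check nothing. Of 6 tested basal keratinocyte markers 0 rose and 1 fell, and their list summed to 12574.2 to 16314 in EGFP-high cells, against 14050.5 to 14612.8 in EGFP-negative cells. The gene that fell was Itga6, which encodes the α6 integrin of the sort: it read 485.1, 405.6 and 585.3 in EGFP-high cells, against 1178.1, 1050.0 and 1371.4 in EGFP-negative cells, above the control level on all 6 arrays (log2 difference -1.26, SE 0.18, limma adjusted p = 0.00449). The gates thus differed in the RNA of the protein on which both were sorted. The basal gene Col17a1 averaged 7825 in EGFP-high cells, against 7027 in EGFP-negative cells (log2 difference 0.15, limma adjusted p = 0.692). The hair matrix list summed to 1503 to 1715.6 in EGFP-high cells, against 2423.8 to 3172 in EGFP-negative cells. Gata3 made up most of that sum in EGFP-negative cells, at 1893 on average.

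**Figure D1:**
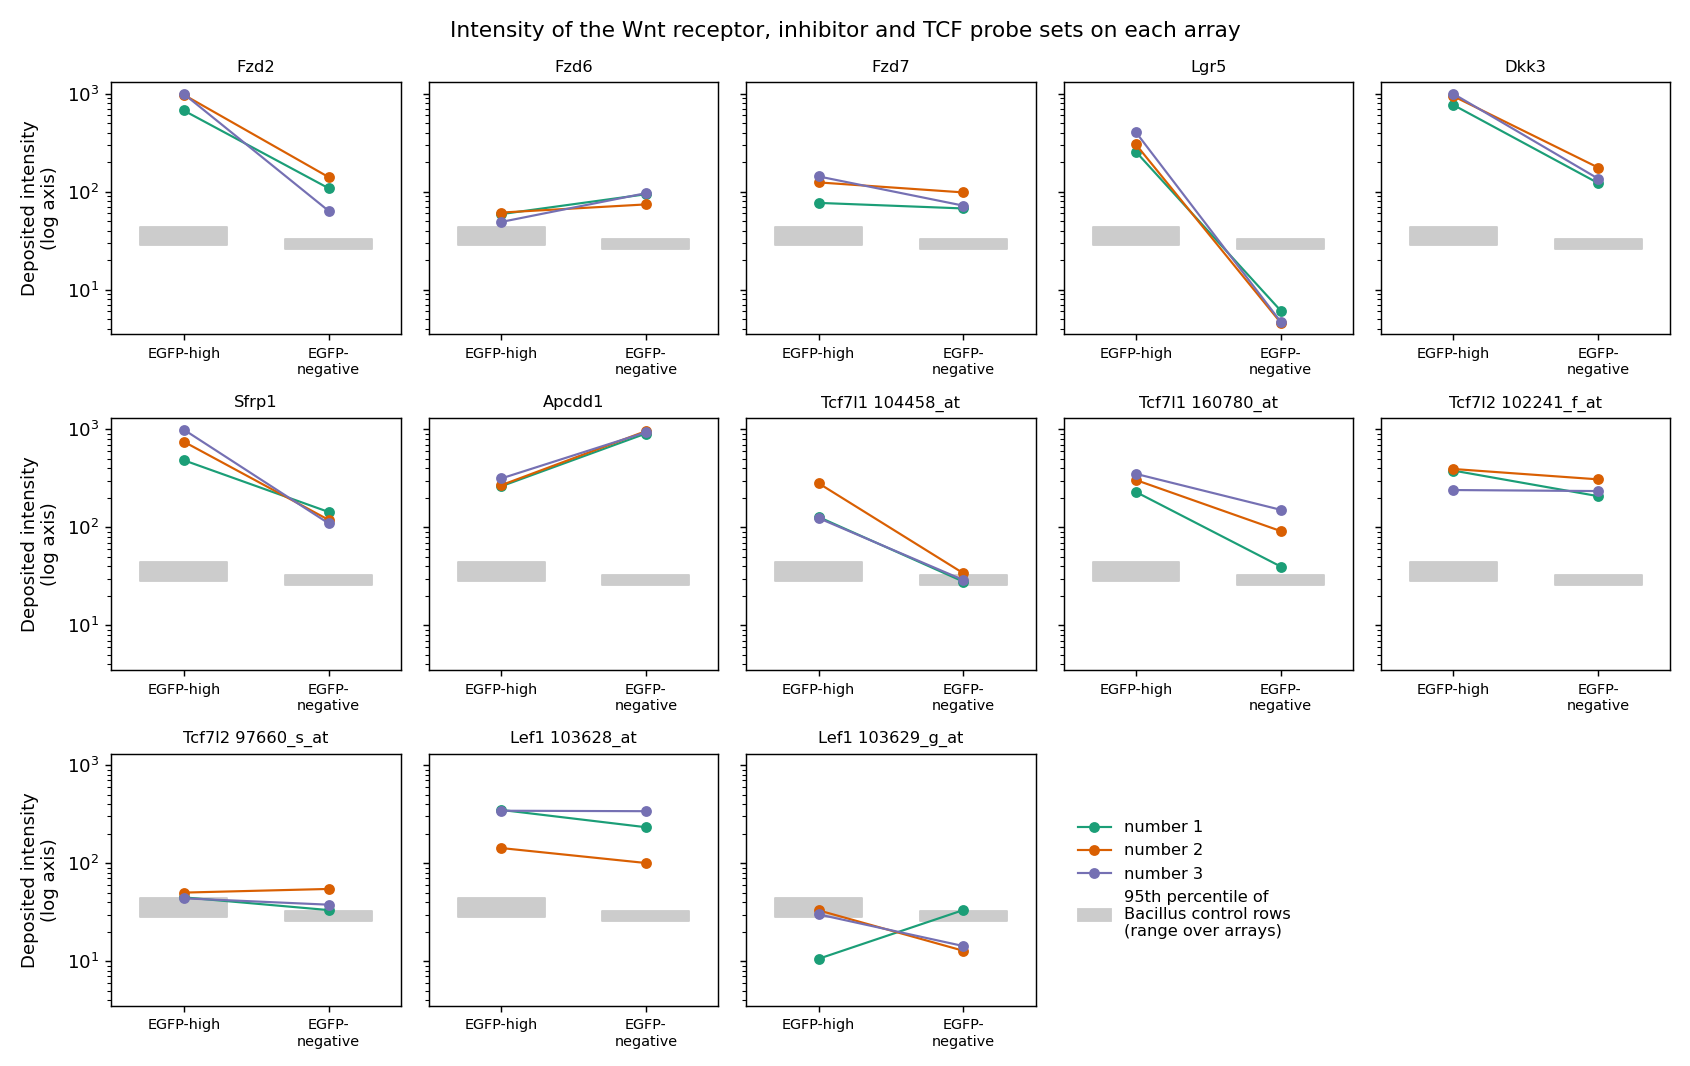
Deposited intensity (log axis) of the 13 probe sets on each array, EGFP-high left and EGFP-negative right, with lines joining arrays of the same replicate number; grey bars span the 95th percentile of the Bacillus control rows over the 3 arrays of a gate. Fzd2, Lgr5, Dkk3, Sfrp1 and both Tcf7l1 probe sets lie higher in EGFP-high, Apcdd1 and Fzd6 lie lower, and Lef1 103628_at is lowest on replicate 2 in both gates.

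In outline, 4 kinds of pattern were seen. Fzd2, Lgr5, Dkk3, Sfrp1 and Tcf7l1 read higher in all EGFP-high samples than in any EGFP-negative sample. Apcdd1 and Fzd6 read lower in all of them. Fzd7 and Tcf7l2 overlapped between the gates. Lef1 overlapped on both of its probe sets, and its brighter one, 103628_at, differed more between replicate numbers than between gates. Of the 13 probe sets, 6 were higher without overlap, where 9.97% of all probe sets were, and 2 were lower without overlap, where 8.45% were. Probe sets were tested where their mean log2 value lay above the 40th percentile of all, near an intensity of 44.5, which 11 of the 13 did. In limma's fit over all 7453 such probe sets, 5.19% passed an adjusted p of 0.05. Of the 11, 6 passed as higher and 1 as lower in EGFP-high cells, where 3.02% of all passed as higher and 2.17% as lower, and nothing is read from that count because the genes were chosen on this contrast. With the replicate number as a block, under which 10.4% of all probe sets passed (778, against 387 without it), the same numbers passed. Log2 differences below are of log2(intensity + 19.3), EGFP-high minus EGFP-negative, with standard errors (SE) from that fit. In bulk samples, fewer cells of a type and less RNA per cell cannot be told apart.

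The receptor Fzd2, a Frizzled that binds Wnt ligands, read 672.1, 973.2 and 993.3 on the EGFP-high arrays of replicates 1, 2 and 3, against 108.3, 140.7 and 63.7 on the EGFP-negative arrays. The lowest EGFP-high value was well above the highest EGFP-negative one. The means were 879.5 ± 179.9 and 104.2 ± 38.7 (SD, n = 3 each), an 8.44-fold ratio and a log2 difference of 2.89 (SE 0.26). Within replicate numbers 1, 2 and 3 the ratio was 6.21, 6.92 and 15.6, and the EGFP-negative array of number 3 was the lowest of the 6.

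Its close relative Fzd7 read 76.7, 124.1 and 142.9 in EGFP-high cells, against 67.3, 98.1 and 71.9 in EGFP-negative cells. The groups overlapped, because EGFP-high replicate 1 lay below EGFP-negative replicate 2. The log2 difference was 0.42 (SE 0.24), with a positive sign in each of the 3 numbers (0.15, 0.29 and 0.83).

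Fzd6, a Frizzled known for planar polarity of hair follicles in mouse skin, had the opposite sign. It read 58.9, 61.1 and 49.0 in EGFP-high cells, against 94.0, 74.0 and 96.4 in EGFP-negative cells. The groups did not overlap, but the gap between 61.1 and 74.0 was small, and the log2 difference was -0.50 (SE 0.19). All 6 values stood above the control level of their array. The 3 Frizzled genes therefore had 1 large positive difference, 1 small positive one and 1 small negative one.

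Lgr5, a receptor for R-spondins and a marker of follicle stem cells, read 254.7, 302.4 and 402.6 in EGFP-high cells, against 6.1, 4.6 and 4.7 in EGFP-negative cells. It was dim on all 3 EGFP-negative arrays and on no EGFP-high array. Set against the control level of those arrays, EGFP-high cells were at least 10.5-fold higher. The log2 difference of 3.77 (SE 0.21) depends on the value added before the logarithm: it was 5.01 with 4.82 added and 2.25 with 77.2 added.

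**Figure D2:**
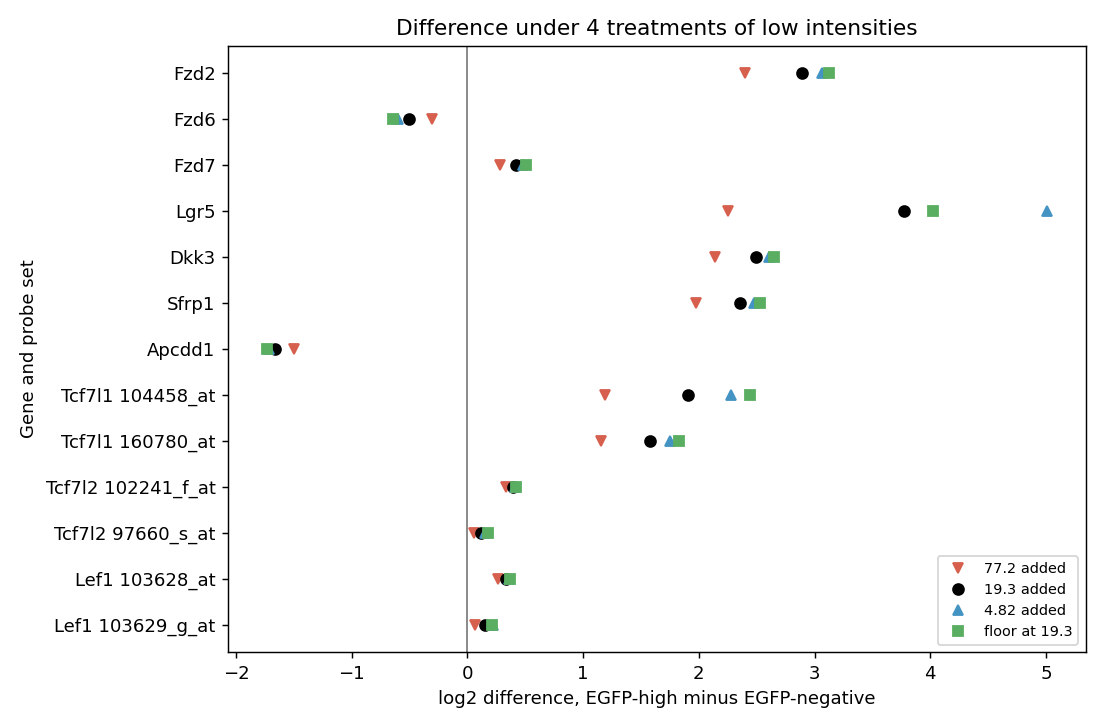
Log2 difference of the 13 probe sets, EGFP-high minus EGFP-negative, under 4 treatments of low intensities: 77.2, 19.3 or 4.82 added before the logarithm, or values under 19.3 raised to it. All signs hold, Lgr5 spans 2.25 to 5.01, and Tcf7l1 104458_at spans 1.19 to 2.45.

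Dkk3, a secreted glycoprotein related to the Dickkopf inhibitors, whose own effect on Wnt signalling is less settled than theirs, read 765.5, 940.7 and 994.7 in EGFP-high cells, against 122.1, 175.9 and 135.6 in EGFP-negative cells. The groups lay far apart, and spread was small in both. The means were 900.3 ± 119.8 and 144.5 ± 28.0, with a log2 difference of 2.49 (SE 0.18). Within numbers 1, 2 and 3 the ratio was 6.27, 5.35 and 7.34.

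Sfrp1, a secreted protein with a Frizzled-like domain that binds Wnt ligands, read 485.0, 750.0 and 995.4 in EGFP-high cells, against 143.9, 119.6 and 110.2 in EGFP-negative cells. The gates did not overlap, and the EGFP-high arrays differed among themselves more than the EGFP-negative ones. The means were 743.5 ± 255.3 and 124.6 ± 17.4, with a log2 difference of 2.36 (SE 0.25). The ratio within numbers was 3.37, 6.27 and 9.03, lowest in number 1. Of the EGFP-high arrays, replicate 1 also correlated best with any EGFP-negative array (r = 0.905 across tested probe sets), which was that of replicate 2 and not its own number. Without both arrays of number 1 the log2 difference was 2.72.

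Apcdd1, a membrane protein that binds Wnt and LRP and inhibits the pathway, ran the other way from the secreted inhibitors. It read 262.7, 269.5 and 315.7 in EGFP-high cells, against 908.3, 960.7 and 935.3 in EGFP-negative cells. Replicates were close in both gates and the groups lay far apart. The means were 282.6 ± 28.8 and 934.8 ± 26.2, a level in EGFP-negative cells 3.31 times that in EGFP-high cells, with a log2 difference of -1.66 (SE 0.15). The fold of EGFP-negative over EGFP-high was 3.46, 3.56 and 2.96 within numbers 1, 2 and 3. The hair matrix markers also summed lower in EGFP-high cells, as given above. Of 5 tested 1 was called, Gata3, at 455 against 1893 (limma adjusted p = 0.00026). The other tested genes of that list did not follow it. Krt86 averaged 559.8 in EGFP-high cells against 363.0, and Krt31 56.9 against 42.4, both higher without overlap. Krt81 averaged 348.8 against 408.7 and Shh 73.8 against 73.8, both with overlap. The part of hair matrix cells in the result was not tested.

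**Figure D3:**
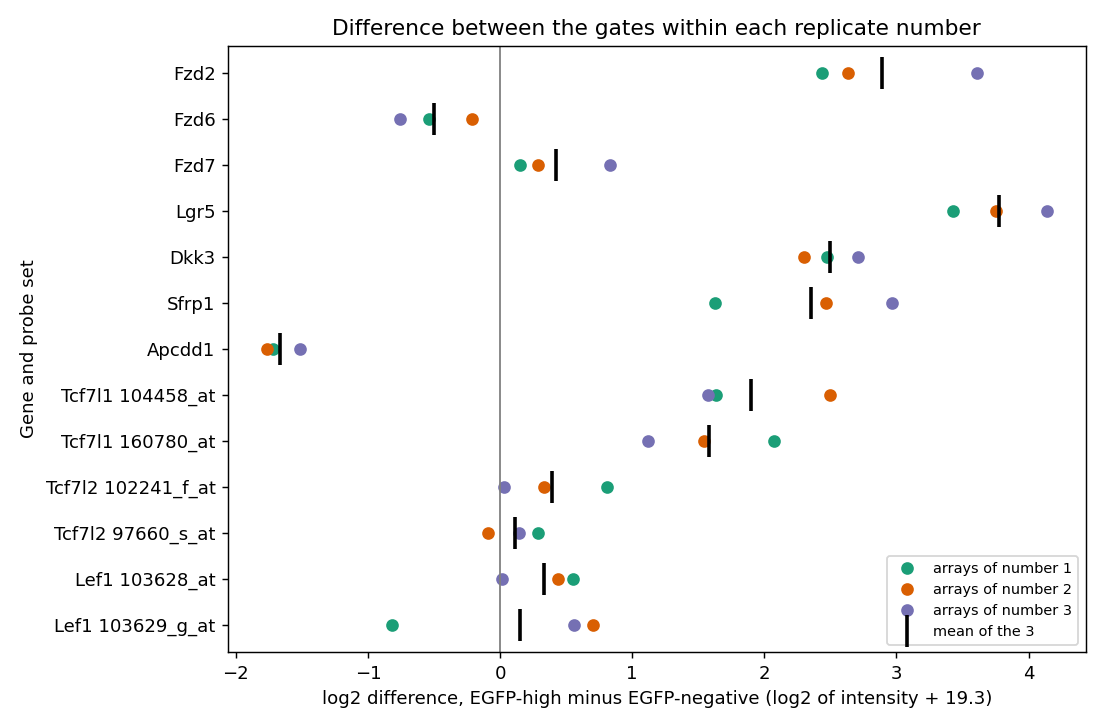
Log2 difference, EGFP-high minus EGFP-negative, within each replicate number (coloured points) and its mean (black bar) for each probe set. The signs agree over the 3 numbers for all probe sets but Tcf7l2 97660_s_at and Lef1 103629_g_at, and Apcdd1 and Dkk3 have the tightest points among the large differences.

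Tcf7l1 encodes a TCF factor that represses target genes when β-catenin is absent, and it has a pair of probe sets. Probe set 160780_at read 230.0, 304.5 and 351.9 in EGFP-high cells, against 39.9, 91.8 and 151.3 in EGFP-negative cells. The groups did not overlap, and number 1 was lowest and number 3 highest in both gates. The log2 difference was 1.58 (SE 0.35), and it was 2.07, 1.54 and 1.12 within the 3 numbers.

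Probe set 104458_at of Tcf7l1 read 127.9, 282.4 and 124.6 in EGFP-high cells, against 28.0, 34.1 and 29.1 in EGFP-negative cells. It was highest on replicate 2 in both gates, unlike the other probe set, and EGFP-negative replicate 1 was dim. The log2 difference was 1.90 (SE 0.29). Both probe sets thus had the same direction and a similar difference, while their order among replicates was not the same.

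Tcf7l2, the related factor once called Tcf4, showed small differences. Probe set 102241_f_at read 380.4, 394.6 and 240.7 in EGFP-high cells, against 208.5, 309.4 and 235.0 in EGFP-negative cells. The groups overlapped, and the log2 difference was 0.39 (SE 0.23). Probe sets of this name type can take up signal from related sequences. Probe set 97660_s_at read 44.9, 50.2 and 43.9 in EGFP-high cells, against 33.3, 54.7 and 37.8 in EGFP-negative cells, above the control level on every array but under the filter, so it was not tested.

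Lef1, the factor of hair-forming cells, read 350.1, 143.0 and 343.5 in EGFP-high cells on probe set 103628_at, against 233.2, 100.6 and 339.8 in EGFP-negative cells. Replicate 2 was lowest in both gates, and the groups overlapped almost fully. The log2 difference was 0.33 (SE 0.43), and it turned to -0.11 without EGFP-negative replicate 2. Within numbers 1, 2 and 3 it was 0.55, 0.44 and 0.01. The other probe set, 103629_g_at, read 10.6, 33.1 and 30.1 in EGFP-high cells, against 33.3, 12.8 and 14.3 in EGFP-negative cells, was dim on 4 of 6 arrays and was not tested. Its differences within numbers 1, 2 and 3 had mixed signs, -0.81, 0.71 and 0.56.

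The 6 log2 values of a probe set can be split into a part that follows the gate, a part that follows the replicate number and a remainder. For Lef1 103628_at the gate held 6.98% of the sum of squares and the number 89.7%. The dim probe set of Lef1, 103629_g_at, did not share this, with 4.53% on the gate, 0.36% on the number and 95.1% on the remainder. For Lgr5, Apcdd1 and Dkk3 the gate held 99.1%, 99.1% and 98.0%, values that the choice of the genes used. Fzd7 and Tcf7l2 102241_f_at lay between, with 42.5% and 41.4% on the number, near the median of 40.7% over all tested probe sets. The shares of the number depend on the contrast that chose the genes, because a large part on the gate leaves little of the total for the number. They were also looked at after the values were seen, and are a description. Array quality differed by number too: the 3′ over 5′ intensity ratio of β-actin was 2.03 on EGFP-high replicate 2 and 1.59 on EGFP-negative replicate 2, against 1.26 to 1.51 on the other 4 arrays. Its part in the Lef1 values was not tested.

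**Figure D4:**
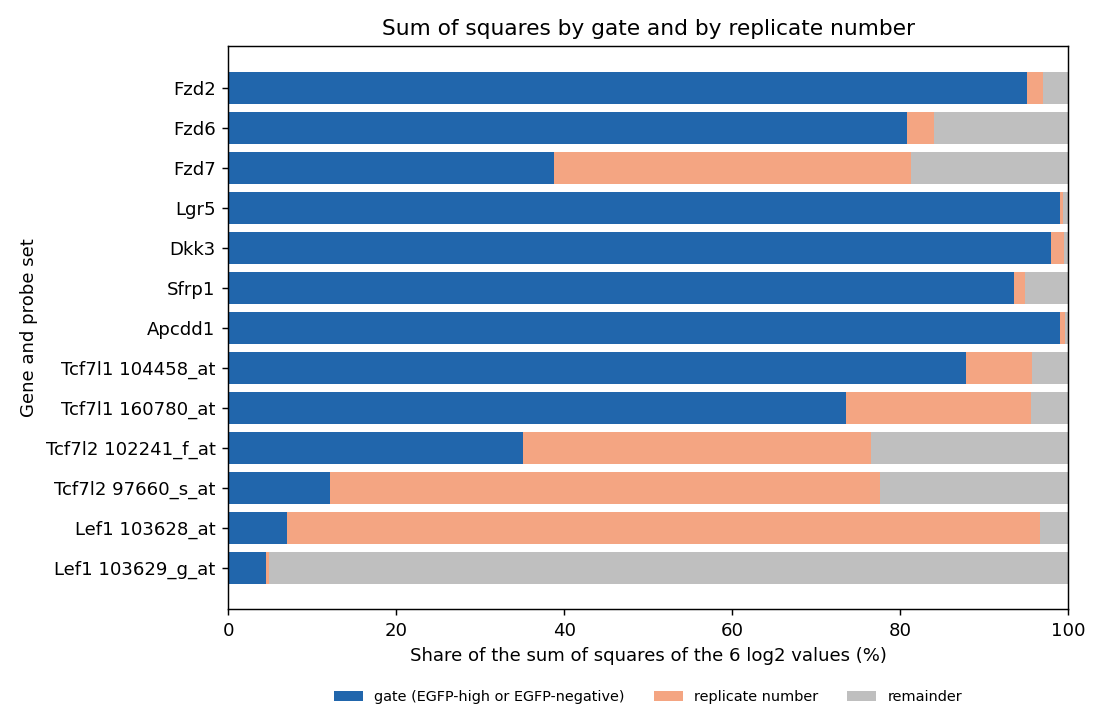
Share of the sum of squares of the 6 log2 values (%) held by the gate, by the replicate number and by the remainder, for each probe set. The number holds 89.7% for Lef1 103628_at, and the gate holds 99.1% for Lgr5 and for Apcdd1.

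The rest of the pathway was read from lists of genes sorted by role, with the 10 genes left out. Of 120 listed genes 79 were on the array and 53 were tested, each by its brightest probe set. In EGFP-high cells 3 of the 53 rose and 5 fell (limma, adjusted over all 7453 probe sets), where 3.06% of all 5628 tested genes rose and 2.27% fell. The median log2 difference was 0.06 over the 53 and -0.0017 over all tested genes. With the block 5 rose and 8 fell, where 5.29% of all tested genes rose and 5.33% fell. The count of 8 dropped to 4 when EGFP-high replicate 3 was left out, and leaving out EGFP-negative replicate 3 gave 5.

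Among other receptors and coreceptors 0 of 8 tested genes passed in limma's fit, with a median log2 difference of 0.46. At an unadjusted p under 0.05 were 4 of the 8. Of all 5628 tested genes 1000 were, and the other counts at an unadjusted p have that same background. The LRP coreceptor Lrp6 read 314 ± 83.9 against 237 ± 17.0 (log2 difference 0.35, SE 0.20, limma adjusted p = 0.432), and Lrp5, under the filter, read 21.0, 17.1 and 9.5 in EGFP-high cells, against 42.9, 92.6 and 11.1 in EGFP-negative cells, dim on all 3 EGFP-high arrays and on 1 of 3 EGFP-negative ones. The 5 other tested Frizzled genes, named after their values were seen, all had positive differences below the threshold: Fzd3 0.61, Fzd1 0.59, Fzd9 0.49, Fzd4 0.43 and Fzd8 0.14. With the block the receptor list gained 1 call, Fzd3 (adjusted p = 0.0424). Of the other secreted modulators 7 were on the array and 1 was tested, Sfrp2, which read 102 ± 1.0 against 96.8 ± 21.3 and did not pass.

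Among destruction complex and cytoplasmic genes 0 of 14 passed (1 at an unadjusted p under 0.05), with a median of 0.07. β-catenin itself, Ctnnb1, averaged 2213 ± 404 in EGFP-high cells and 1584 ± 337 in EGFP-negative cells (log2 difference 0.48, SE 0.21, limma adjusted p = 0.278), and passed with the block (adjusted p = 0.0225). Axin2, a scaffold of the complex that is also a widely used readout of the pathway, read 76.9 ± 12.7 against 101.1 ± 14.9 (log2 difference -0.32, SE 0.19, limma adjusted p = 0.46).

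Among other nuclear factors and corepressors 1 of 9 passed. The corepressor Ctbp2 rose to 208 ± 54.7 in EGFP-high cells, against 95.5 ± 26.0 in EGFP-negative cells (log2 difference 0.99, SE 0.24, limma adjusted p = 0.0487), close to the threshold. Its call was lost without any single array other than EGFP-high replicate 1 (limma adjusted p of 0.0579 to 0.181, highest when EGFP-high replicate 3 was left out), and under 7 other alternatives (up to 0.0964, with no filter on low values).

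Genes reported elsewhere as targets of β-catenin and TCF were called in both directions, 2 higher and 2 lower of 14 tested, with a median of -0.30. Id2, an inhibitor of helix-loop-helix factors, rose to 3483 ± 1138 in EGFP-high cells, against 484 ± 477 in EGFP-negative cells (log2 difference 3.17, SE 0.55, limma adjusted p = 0.0106; 0.061 without EGFP-high replicate 3). The homeobox gene Dlx3, known downstream of Wnt in hair, rose to 151.9 ± 23.1 in EGFP-high cells, against 23.7 ± 11.3 in EGFP-negative cells, where it was dim on 2 of 3 arrays (log2 difference 2.02, SE 0.24, limma adjusted p = 0.00189). The TNF receptor family member Tnfrsf19 fell to 41.6 ± 3.1 in EGFP-high cells, against 174.9 ± 43.4 (log2 difference -1.65, SE 0.21, limma adjusted p = 0.00223). The growth factor Bmp4 fell by 0.76 on the log2 scale (SE 0.15, limma adjusted p = 0.0184), and that call was lost without any single array other than EGFP-high replicate 1 (limma adjusted p as high as 0.0911, when EGFP-high replicate 3 was left out) and without both arrays of number 1 (0.0513). As the mean of its probe sets Bmp4 fell further, by 1.61 (limma adjusted p = 0.00319): its dimmer probe set read 51.0, 13.9 and 36.9 in EGFP-high cells, against 159.9, 241.5 and 440.2 in EGFP-negative cells. With 77.2 added before the logarithm the log2 difference was 1.18 for Dlx3 and -1.07 for Tnfrsf19, and both stayed past the threshold. With the block the survival gene Birc5, at 45.2 ± 6.4 against 119.4 ± 49.2, was also lower (adjusted p = 0.0371).

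The ligands, read only for context, had 0 of 8 higher and 3 lower, with a median of -1.18. Wnt10a fell by 1.69 on the log2 scale, Wnt3a by 1.53 and Wnt4 by 2.12. Wnt3a was dim on 2 of the 3 EGFP-high arrays and had a log2 difference of -0.93 with 77.2 added, and the call of Wnt4 was lost when EGFP-high replicate 3, or either EGFP-negative replicate 2 or replicate 3, was left out (limma adjusted p of 0.0661 to 0.0737). Wnt3, Wnt7b and Wnt6 did not pass, at log2 differences of -1.34, -1.02 and -0.84 (limma adjusted p = 0.075, 0.135 and 0.0703). Wnt5b and Wnt1 had positive differences, 0.21 and 0.14. With the block 5 ligands were lower, Wnt3 and Wnt7b among them.

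**Figure D5:**
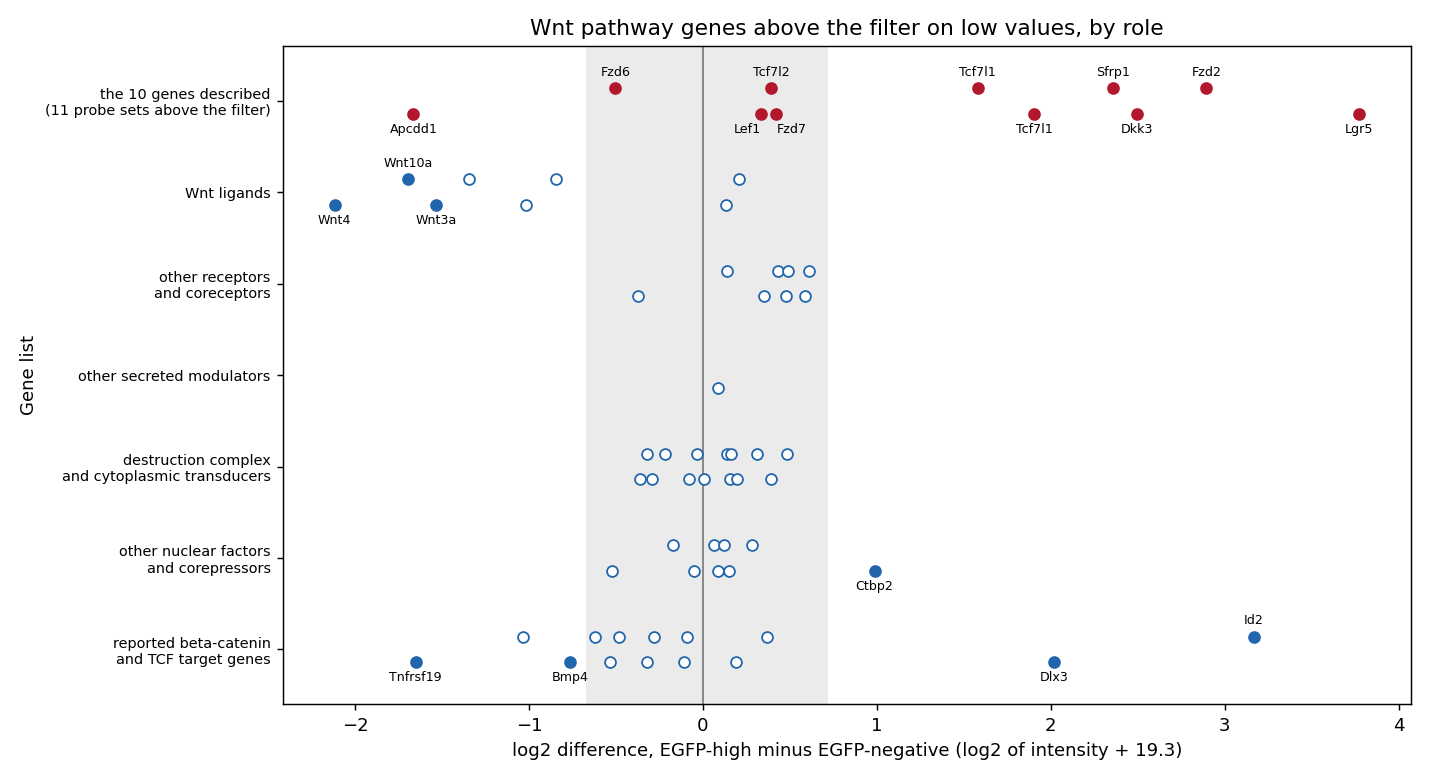
Log2 difference, EGFP-high minus EGFP-negative, of tested Wnt pathway genes by role; red points are the 11 tested probe sets of the 10 genes, filled blue points passed the threshold, open blue points did not, and the grey band spans the 5th to 95th percentile (-0.67 to 0.71) of all tested probe sets. The destruction complex genes all lie within the band. The ligands Wnt10a, Wnt3a and Wnt4 lie left of it as called genes, and Wnt3, Wnt7b and Wnt6 lie left of it as open points.

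Markers of other cells that the gates could hold were read beside these results, as the number of tested genes that passed and the summed intensity of each list. Dermal papilla markers, from cells that secrete Wnt modulators, summed to 728.3 to 934.7 in EGFP-high cells, against 675.1 to 740.6 in EGFP-negative cells, with 0 of 2 tested genes passing and Crabp1, Sox2 and Vcan dim on all 6 arrays. Most of both sums was Sdc1, which averaged 696.0 in EGFP-high cells and 548.8 in EGFP-negative cells. The other tested gene, Prom1, averaged 54.6 and 52.3. Fibroblast markers overlapped at 1071.4 to 1417.4 in EGFP-high cells and 1095.9 to 1285.5 in EGFP-negative ones, with 0 of 5 tested passing. In both of these lists 0 genes had an unadjusted p under 0.05.

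Melanocyte markers summed to 613.8 to 711 in EGFP-high cells, against 452.8 to 498 in EGFP-negative cells, without overlap. Of 4 tested genes 1 passed, the melanocyte regulator Mitf, at 123.9 against 45.7 (log2 difference 1.13, limma adjusted p = 0.0147). Its call was lost without EGFP-high replicate 3 (0.0599), without EGFP-negative replicate 3 (0.0538) and without both arrays of number 1 (0.0699), and its difference was 0.70 with 77.2 added. Of the pigment genes, Pmel averaged 94.2 in EGFP-high cells and 60.3 in EGFP-negative ones, Tyr 40.7 and 28.3, Dct 100.4 and 106.3, and Tyrp1 28.2 and 34.2, and all 4 overlapped between the gates. Sox10 averaged 229.1 in EGFP-high cells and 180.2 in EGFP-negative ones, also with overlap, and Kit 34.2 and 23.2 without overlap. Schwann cell markers, which share Sox10, summed lower in EGFP-high cells, 431.1 to 453.3 against 489.7 to 553.8, with 0 of 2 tested passing, 1 of them at an unadjusted p under 0.05.

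Of 3 tested sebaceous gland markers 1 passed, Mgst1, a microsomal glutathione transferase, at 312.7 in EGFP-high cells and 66.0 in EGFP-negative ones (log2 difference 1.92, limma adjusted p = 0.00677). Scd1 had the opposite sign, at 727.5 in EGFP-high cells and 1159 in EGFP-negative ones (log2 difference -0.73, limma adjusted p = 0.244), and passed as lower with the block (adjusted p = 0.0176). Mc5r averaged 169.4 and 126.3, with overlap. The sebaceous list summed to 1091.2 to 1506.6 in EGFP-high cells, against 1203.1 to 1619 in EGFP-negative cells, and Elovl3 and Pparg were dim on all 6 arrays. Of T cell markers 1 was tested, Thy1, a surface protein that other skin cells also carry, and it fell to 54.3 in EGFP-high cells, against 175.3 in EGFP-negative cells (log2 difference -1.51, limma adjusted p = 0.0382). That call was lost without EGFP-high replicate 2, without any single EGFP-negative array (limma adjusted p up to 0.119), with no filter on low values and with 4.82 added or low values raised to a floor, and the difference was -0.97 with 77.2 added. The T cell receptor complex genes Cd3d, Cd3e and Cd3g, under the filter, averaged 23.2, 63.9 and 58.3 in EGFP-high cells, against 5.67, 20.7 and 23.7 in EGFP-negative cells, where Cd3d and Cd3e were dim on all 3 arrays, as they were on 2 of 3 EGFP-high arrays. The Cd3e mean rests on EGFP-high replicate 3, at 135.4 against 27.7 and 28.7 on the other EGFP-high arrays. The T cell list summed to 183.6 to 360.5 in EGFP-high cells, against 261.2 to 284.5 in EGFP-negative cells.

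The lists for epidermal differentiation, infundibulum and isthmus, Langerhans cells and macrophages, endothelium and muscle overlapped in their sums and had 0 called genes (limma; 2 epidermal genes and 1 muscle gene had an unadjusted p under 0.05). With the block 1 of them passed, the epidermal keratin Krt1, at 1583 against 3367 (adjusted p = 0.00708). The epidermal sums were 3667.3 to 13192.7 in EGFP-high cells, against 11511.9 to 16247.3 in EGFP-negative cells. Krt10 read 8799.4, 4399.2 and 2423.9 in EGFP-high cells, against 9986.4, 8037.5 and 8705.3, with overlap through EGFP-high replicate 1. Casp14 averaged 135.2 against 210.0 and Sprr1a 271.0 against 341.4, both lower without overlap. Flg, Lor, Ivl and Tgm3 overlapped. The part of the cells of all these lists in the differences of Fzd2, Lgr5, Dkk3, Sfrp1 and Tcf7l1 was not tested.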

How the data were processed

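RNA of 3 EGFP-high and 3 EGFP-negative samples was measured on 6 Affymetrix mouse arrays, grouped and numbered by their titles. The authors deposited 1 linear intensity per probe set and array; the 2% trimmed mean was 150.06 to 150.08 in every column, so the arrays had been scaled, and the software is not given in the sources used here. Of 12488 rows 66 control rows were left out, and medians differed by 1.09 at most, so nothing was rescaled. Of the other 12422 probe sets 10833 paired with 1 symbol, 396 with several and 1193 with none listed; symbols were looked up through Entrez IDs in RefSeq GRCm38.p6 names (10817 matched, 0 changed).

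Log2(intensity + 19.3), 19.3 being the 25th percentile of all values, was fitted by limma 3.58.1 under R 4.3.3 (lmFit, eBayes with trend, two-sided, Benjamini-Hochberg, threshold 0.05) on probe sets with a mean above the 40th percentile. The script was tested on simulated data. Arrays give no read depth, and their number limits the precision. Replicate numbers were read as pairs in the values within numbers and in the block. The reason was that deviations from group means of same-numbered arrays correlated at 0.336, 0.368 and 0.305, all above 0.1. The labels do not state a pairing, and the main fit, with its SE and adjusted p, did not use it. The block is an alternative. Other alternatives were the added value, the filter, quantile normalization, no trend, all probe sets of a gene and leaving out arrays. The text names all probe sets of the 10 genes, every listed pathway gene past the threshold, and Ctnnb1, Axin2, Lrp5 and Lrp6. The genes and lists were chosen with earlier results of these data known.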

Additional observations from a re-analysis of the deposited data

How the results depend on the processing

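Of the 13 probe sets of the 10 genes 11 had a positive difference in the main analysis, and 10 to 11 did when single arrays were left out. The 1 sign that turned was that of Lef1 103628_at. Over all probe sets 387 were called. Leaving out single arrays gave 191 to 500, the lowest 191 without EGFP-high replicate 3, and the array of EGFP-high replicate 2 left out gave 226. With the replicate block 778 were called, and the cause was not tested. Of other Wnt pathway genes 8 were called, with 4 to 9 when single arrays were left out. They came to 13 with the replicate block, which ended none of the 8 calls, and to 5 with the filter at the 60th percentile, which tests fewer genes. The remaining alternatives gave 327 to 426 probe sets and 7 to 9 pathway genes. Levels near the control rows limit the size of the differences of Lgr5, Dlx3, Wnt3a and Tcf7l1 104458_at.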

Other observations

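Several pathway genes lay under the filter on low values because 1 gate was near the control level, and they are given here as values, named after these were seen. Wnt5a, a ligand best known for signalling without β-catenin, read 14.7, 6.0 and 2.3 in EGFP-high cells, against 71.6, 86.9 and 73.3 in EGFP-negative cells. It was dim on all 3 EGFP-high arrays, and EGFP-negative cells were at least 2.19-fold higher against the control level. Without the filter its log2 difference was -1.86 (limma adjusted p = 0.00648). Its receptor Ror2 read 65.0, 53.8 and 32.8 in EGFP-high cells, against 23.6, 14.9 and 22.6 in EGFP-negative cells, at least 1.63-fold higher (log2 difference 0.79, limma adjusted p = 0.184 without the filter). Nrcam, an adhesion molecule reported as a β-catenin target, read 83.0, 110.6 and 83.2 in EGFP-high cells, against 8.8, 4.9 and 5.7 in EGFP-negative cells. It was dim on all 3 EGFP-negative arrays and at least 3.06-fold higher in EGFP-high cells (log2 difference 2.11, limma adjusted p = 0.00236 without the filter). The inhibitor Dkk1 was dim on all 6 arrays.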
